A study of Capra hircus with 10 samples.

Results

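miR-193a, miR-193b and miR-365 form a small group of miRNA whose genes lie in pairs in mammalian genomes. Their rows were taken by name from the deposited miRNA counts of the goat mammary gland, with either arm of the hairpin allowed and the species prefix ignored. The name rule found 5 of the 1804 miRNA rows, and they belonged to 3 precursors: miR-193b-3p and miR-193b-5p of mir-193b, a row named miR-193a on the 3p arm of mir-193a (called miR-193a-3p here), and miR-365-3p and miR-365b-5p of mir-365. The row miR-365b-5p carried its human name. No row for the 5p arm of mir-193a was found. 3 of the 5 rows, all on the 3p arm, passed the filter on low counts, a normalized count above 28 in at least 1 library.

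Small RNA had been sequenced from 10 Alpine goats at 48 ± 2 days post-partum, 1 library per goat. The 4 Control goats gave libraries L01, L04, L06 and L10 and ate a diet of orchard grass hay and concentrate freely. The 6 FD goats gave the other libraries, L02, L03, L05 and L07 to L09, and were deprived of food during the 48 h before slaughter, after 2 weeks on the same diet as the Control goats, and all goats had free access to water. The library totals ran from 4495512 to 7506955 counts in Control and from 5674119 to 9842009 counts in FD libraries.

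A miRNA is cut from a hairpin precursor and guides silencing proteins to messenger RNA that pair with its seed, the bases from position 2 to 8. In mammals, 1 hairpin for miR-193b lies close to a copy of mir-365, and the hairpin for miR-193a lies close to another copy of mir-365 on a different chromosome. Both mir-365 copies give the same mature 3p miRNA, so its reads cannot be assigned to either locus. In mice, the miR-193b locus has been described as bound by STAT5, the transcription factor that relays prolactin signals, and as restraining stem and progenitor cells of the mammary epithelium. The miR-193b and miR-365 pair has also been described as promoting brown adipocyte differentiation.

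The mature sequences of the 5 rows and of the 2 predicted miRNA that share a seed with them are given below, since the counts of miR-193a-3p and miR-193b-3p can only be read with their sequences in view. They are written 5′ to 3′ as DNA letters, as in the deposited tables, with the seed in capitals.
miR-193b-3p: aACTGGCCcacaaagtcccgct
miR-193a-3p: aACTGGCCcacaaagtccc
chr17_23502-5p: aACTGGCCtctggcccaaccga
miR-365-3p: tAATGCCCctaaaaatccttat
miR-193b-5p: cGGGGTTTtgagggcgagatga
miR-365b-5p: aGGGACTTtcaggggcagctgt
chr19_26443-3p: aGGGACTTgcctgctcct

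The sequence listed for miR-193a-3p, of 19 bases, was identical to the first 19 bases of miR-193b-3p, which has 22. The shared part is in capitals in AACTGGCCCACAAAGTCCCgct, and the 3 bases in lower case belong to miR-193b-3p alone. A read that ends within the shared part is therefore the same for both rows. The seed of miR-365-3p was found in no other of the 1804 rows, and neither was that of miR-193b-5p. The other seeds were shared with predicted miRNA at very low counts. The precursor chr17_23502, on chromosome 17 of CHIR_1.0 from 63829707 to 63829780 on the plus strand, had a miRDeep2 score of 1.4, higher where reads and folding look more like those of a hairpin, and its miRNA had 3 counts over the 10 libraries. The precursor chr19_26443, on chromosome 19 from 54305665 to 54305710 on the plus strand, scored 0.1 and its miRNA had 2 counts. Genes at these positions were not looked up, for want of an annotation of the same build.

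In RefSeq's gene table of another goat assembly, ARS1.2, the gene MIR193A lies between MKL2 and PARN, its nearest named protein-coding genes, and MIR365 between COPRS and RAB11FIP4. The gene next to MKL2 and PARN in the human genome is miR-193b, with a mir-365 copy, while human miR-193a and the other mir-365 copy lie between RAB11FIP4 and COPRS. The gene called MIR193A in the goat table thus has the neighbours of the human miR-193b gene, and MIR365 has the neighbours of the human miR-193a gene. A gene called MIR193B was not listed in the goat table. Whether the rows named miR-193a and miR-193b come from separate loci in CHIR_1.0 was not tested, so a separate miR-193a is not shown to be measured here. The names are kept as deposited, and the values given for miR-193a-3p are those of its row.

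The rows named miR-193a-3p and miR-193b-3p did not vary as counts of separate reads would. In Control libraries miR-193b-3p had 245 counts in L01, 277 in L04, 144 in L06 and 294 in L10, and miR-193a-3p had 228, 262, 138 and 269 in the same order. In FD libraries miR-193b-3p had 263 counts in L02, 509 in L03, 437 in L05, 387 in L07, 506 in L08 and 247 in L09, and miR-193a-3p had 237, 476, 414, 359, 486 and 226. miR-193b-3p was the higher in 10 of 10 libraries, by between 6 and 33 counts, or from 3.95% to 9.89% of its own count.

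The log2 ratio of miR-193b-3p to miR-193a-3p (0.5 added to each count) ran only from 0.06 to 0.15. Its SD over the 10 libraries was 0.03, while the counting error of separate reads at these depths alone would give 0.12, so the observed spread was 0.248 times that error. Their ratio thus varied less than counts of separate reads would. The files hold no reads, so how many reads entered both rows was not seen. Among the tested miRNA there were 6 other pairs in which 1 sequence lies inside the other, and their ratios varied by between 0.504 and 5.81 times the counting error. Over the 101 known precursors with both arms tested the median was 2.08, and 1 pair, the rows named miR-133b-3p and miR-133b-5p, was below the miR-193 pair. Those rows had equal counts in every library. The sequence of miR-133b-5p lies inside that of miR-133a-3p, a 3p miRNA, so the pair is not shown to be separate arms. The SD of its log2 ratio was 0, while the counting error of separate reads would give 0.47. Which reads entered its rows was not seen. The counts of miR-193a-3p and miR-193b-3p are accordingly given below as 1 measurement seen through a pair of rows, not as independent evidence. Reads without molecular identifiers are not independent molecules, so this error, like the Wilson intervals and floors of the arm shares below, covers counting only.

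**Figure D1:**
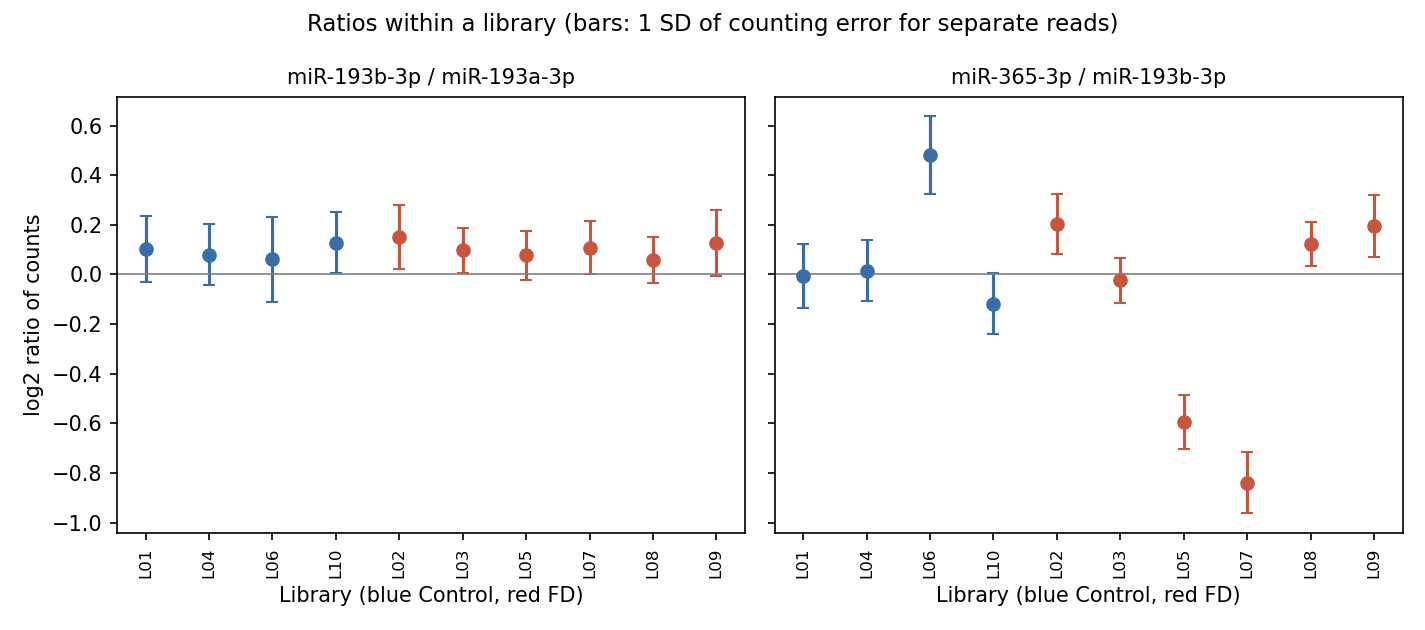
Log2 ratios of counts within each library (vertical axis, no unit) for miR-193b-3p over miR-193a-3p (left) and miR-365-3p over miR-193b-3p (right), with blue points for the 4 Control and red points for the 6 FD libraries and bars of 1 SD of the counting error that separate reads would have. The left ratios lie between 0.06 and 0.15, while the right ratios run from -0.84 in L07 to 0.48 in L06.

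The diets did not separate the miR-193b-3p counts. Normalized counts, that is counts over the DESeq2 size factor of each library, were 339 in L01, 272 in L04, 202 in L06 and 282 in L10 of the Control goats. They were 281 in L02, 488 in L03, 514 in L05, 295 in L07, 303 in L08 and 216 in L09 of the FD goats. L03 and L05 stood above every Control library, and the other 4 FD libraries lay within the Control range. The Control mean was 274 ± 56.2 (SD, n = 4) and the FD mean 349 ± 122 (SD, n = 6). In bulk tissue, fewer cells of a type and less RNA per cell cannot be told apart.

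The log2 fold change of miR-193b-3p (FD over Control) was 0.34 with a standard error of 0.249, and its Benjamini-Hochberg adjusted p in the edgeR quasi-likelihood test was 0.474. Its 95% interval ran from -0.20 to 0.88, that is from 0.868-fold to 1.84-fold. The interval holds both no change and a rise of that size. The row miR-193a-3p, which tracks it, had a Control mean of 256 ± 49.8 (SD, n = 4) and an FD mean of 326 ± 117 (SD, n = 6). Its log2 fold change was 0.33, with an adjusted p of 0.478 in the same edgeR test and a standard error of 0.253.

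**Figure D2:**
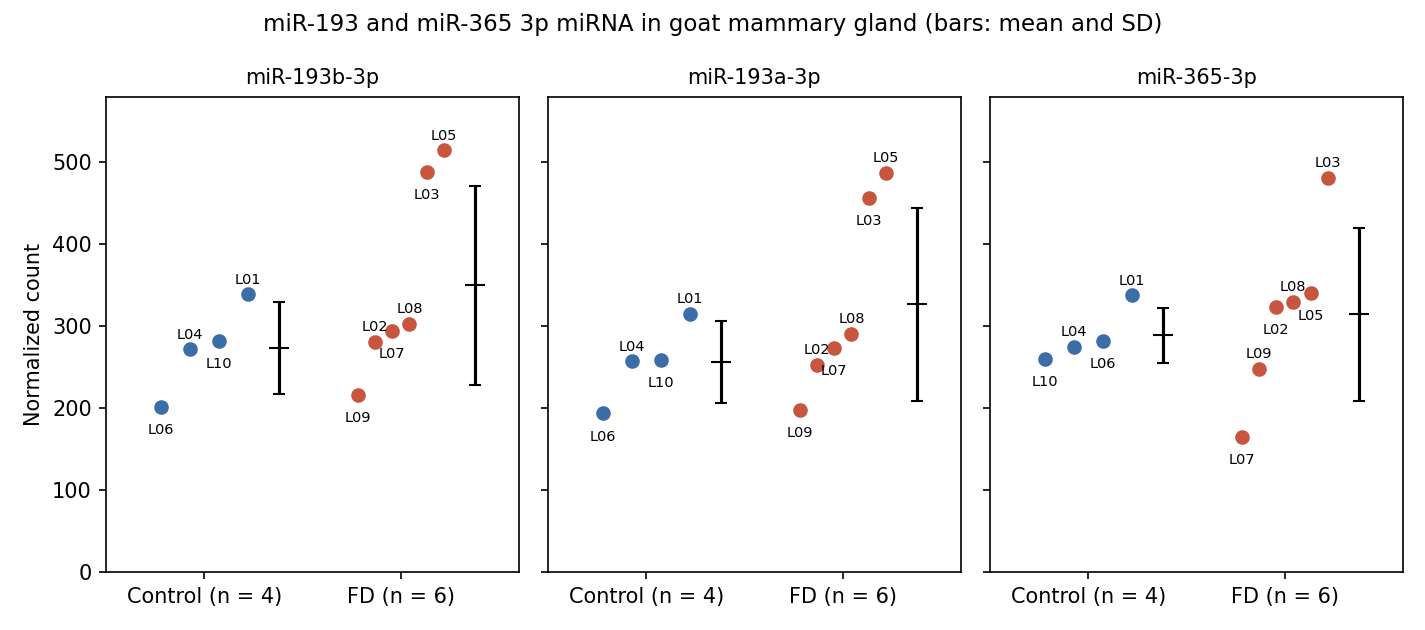
Normalized counts (vertical axis, counts divided by size factors) of miR-193b-3p, miR-193a-3p and miR-365-3p in each library, with blue points for Control and red points for FD goats, sorted by value within a diet, and black bars for mean and SD. In each panel the FD and Control values overlap, with L03 and L05 highest for both miR-193 rows and L07 lowest for miR-365-3p.

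miR-365-3p differed less between the diets. It had 337 normalized counts in L01, 275 in L04, 282 in L06 and 260.2 in L10 of the Control goats. In the FD goats it had 323 in L02, 481 in L03, 340.1 in L05, 164 in L07, 330 in L08 and 248 in L09. L03 and L05 were above every Control library, and L07 and L09 were below every Control library, so the FD values lay on both sides of the Control range. The Control mean was 288 ± 33.8 (SD, n = 4) and the FD mean 314 ± 105 (SD, n = 6).

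The log2 fold change of miR-365-3p was 0.11 with a standard error of 0.242, and its adjusted p in the edgeR test was 0.842. The 95% interval ran from -0.42 to 0.63, or from 0.748-fold to 1.55-fold. Its direction rested on L03, since without that FD library the log2 fold change was -0.039.

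None of the 3 rows that were tested passed an adjusted p of 0.1 or an unadjusted p of 0.05 in the edgeR test. Over all 490 miRNA tested, 0 passed the adjusted threshold (0%), and 77 had an unadjusted p under 0.05 (15.7%). DESeq2's Wald test called 27 of the 490 (5.51%) and limma-voom 0 (0%), and neither called any of the 3 rows. The groups did not overlap for 11 of the 490 miRNA (2.24%), none of them a miR-193 or miR-365 row. A log2 fold change above 0 was given to all 3 rows, as to 245 of the 490 (50%), and with the miR-193 rows tracking each other the 3 rows amount to fewer than 3 measurements.

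**Figure D3:**
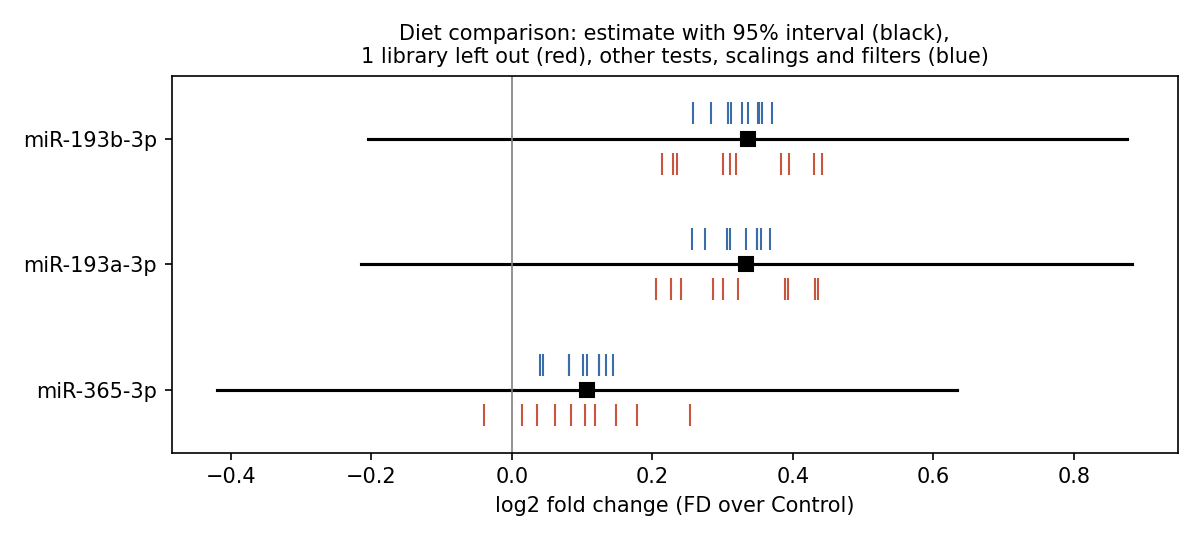
Log2 fold change (horizontal axis, FD over Control) of the 3 tested rows, with a black square and line for the edgeR estimate and its 95% interval, red ticks for the 10 fits that each leave out 1 library and blue ticks for the other tests, scalings and filters. All 3 intervals include 0, and 1 red tick of miR-365-3p lies below 0, at -0.039.

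The spread between goats of 1 diet was wider for these rows than for most tested miRNA. The SD of log2(normalized count + 1) within diets was 0.43 for miR-193b-3p, 0.44 for miR-193a-3p and 0.42 for miR-365-3p, against a median of 0.34 over all tested miRNA. Among 94 tested miRNA with a mean within 2-fold of that of miR-193b-3p, 65 had a smaller SD. For miR-365-3p 65 of 96 had a smaller SD.

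In abundance the rows were close to each other and in the middle of the tested range. miR-193b-3p held rank 184 of the 490 by mean normalized count, miR-365-3p rank 188 and miR-193a-3p rank 192. In single libraries miR-193b-3p ranged from 32.0 to 77.0 RPM (counts scaled to a common library total) and miR-365-3p from 24.6 to 73.9. The means of the 3 rows within a diet differed by less than 1 SD between its libraries.

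miR-365-3p and miR-193b-3p did not keep a fixed ratio. Their counts were nearly equal in L01, L03 and L04, with log2 ratios of -0.0059, -0.02 and 0.02. miR-365-3p was the lower in L05 at a log2 ratio of -0.60 and in L07 at -0.84, and the higher in L06 at 0.48. The SD of this ratio over the libraries, 0.39, was 3.24 times the counting error, above the ratio of both arms in 78 of the 101 known precursors.

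Between the diets, the mean log2 ratio of miR-365-3p to miR-193b-3p was 0.09 ± 0.26 (SD, n = 4) for the Control and -0.16 ± 0.45 (SD, n = 6) for the FD goats. The difference of -0.25 gave p = 0.338 by exact permutation of the diet labels in all 210 ways, on both sides, and 0.629 after adjustment over the 2 ratios tested. For miR-193b-3p over miR-193a-3p the difference was 0.0099, with p = 0.629 in the same exact permutation test and 0.629 after adjustment. The smallest p this design can give is 0.00476.

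Across the 10 libraries, log2 normalized counts of miR-193b-3p and miR-365-3p had a Pearson correlation of 0.567 (permutation p = 0.0774, adjusted 0.0774 over the 3 pairs) and a Spearman correlation of 0.685 (permutation p = 0.0348, adjusted 0.0434). Without L03 and L05, the libraries farthest from the median of miR-193b-3p, Pearson's r was 0.151, so the Pearson value depended on those libraries. Leaving out the ends of a range lowers r in itself, and Spearman's correlation was not computed without them. Within the 6 FD libraries Pearson's r was 0.604, and the 4 Control libraries were too few for a value. miR-193a-3p and miR-365-3p gave a Pearson correlation of 0.574 (permutation p = 0.0740, adjusted 0.0774), a Spearman correlation of 0.661 (permutation p = 0.0434, adjusted 0.0434) and an r of 0.172 without L03 and L05. The miR-193 rows, themselves among the 3 pairs, had r = 0.998 with each other. The pairs with miR-365-3p thus repeat nearly the same comparison, and the adjustment does not cover 3 separate tests.

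The 5p arms were near the limit of detection. miR-193b-5p had from 1 to 4 counts in Control and from 0 to 5 in FD libraries, with 0 in L08. miR-365b-5p had from 0 to 6 counts in both diets, with 0 in L05 and L06. Of the counts on mir-193b, 20 of 3329 were on the 5p arm, 0.601% with a 95% Wilson interval of 0.389% to 0.926%, and on mir-365 28 of 3167, 0.884% with an interval of 0.612% to 1.27%. The 3p rows therefore held nearly all counts listed for both precursors. Whether another mir-365 copy fed the row miR-365-3p was not tested, so the mir-365 share is that of its rows and not of a given hairpin. The same holds for the mir-193b share, since miR-193b-3p was not shown to be measured apart from miR-193a-3p. These shares were within the common range, since the median share of the lesser arm was 1.08% over 169 known precursors with at least 1000 counts, of which 66 had a lower share than mir-193b and 76 a lower one than mir-365.

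By diet, the 5p share of mir-193b was 1.03% (Wilson interval 0.561% to 1.89%) of the summed Control counts and 0.424% (0.230% to 0.779%) of the summed FD counts. That of mir-365 was 0.994% (0.541% to 1.82%) in Control and 0.833% (0.528% to 1.31%) in FD libraries. The intervals overlap for both precursors and take no account of the spread between goats. With a floor of 3 counts in place of 0, the 5p share of mir-193b in L08 was 0.593%. That of mir-365 was 1.04% in L05 and 1.49% in L06. The Wilson upper limits for these libraries were higher, at 0.753% in L08, 1.31% in L05 and 1.88% in L06. Neither 5p row passed the filter on low counts, and a change between the diets was not detectable at this depth. In a fit without that filter the estimate for miR-193b-5p was -0.90 on the log2 scale, with a standard error of 0.772 and an adjusted p of 0.642 in the edgeR test. For miR-365b-5p it was -0.07, with a standard error of 0.707 and an adjusted p of 0.995 in that edgeR test.

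The miRNA most like each row over the 10 libraries were sought by Pearson correlation of log2(normalized count + 1) among the other 487 tested miRNA, as a description without a test. For miR-193b-3p these were miR-296-5p (0.891), miR-133a-3p (0.852), which is abundant in muscle, and miR-214-3p (0.840), a miRNA of stromal cells, and for miR-193a-3p they were the same 3 miRNA. Without L03 and L05 the values for miR-193b-3p were 0.715, 0.865 and 0.557. By Spearman correlation over all 10 libraries they were 0.624, 0.891 and 0.842 in the same order. miR-296-5p had low counts, from 11 in L06 to 59 in L05. Of the 487 miRNA, 7 had a Pearson correlation above 0.8 with miR-193b-3p and 1 with miR-365-3p. miR-133a-3p had 1285 normalized counts in L05 and 458 in L06, the libraries with the highest and the lowest value of miR-193b-3p.

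For miR-365-3p the most alike was miR-128-3p (0.827, and 0.828 without L03 and L07), followed by chr6_9250-5p (0.725, and 0.216 without those libraries) and miR-378-5p (0.665, and 0.580 without them). miR-128-3p and miR-365-3p were both highest in L03, with 498 normalized counts of miR-128-3p. The 3 miRNA named for miR-193b-3p and the 3 named for miR-365-3p had none in common. All these values come from the same libraries and share their depths.

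Among the other muscle miRNA on the list of markers, miR-1-3p had between 11 and 37 counts per library and correlated with miR-193b-3p at 0.625 and with miR-365-3p at 0.126. miR-206-3p had 1 count in all. The muscle list summed to between 75.2 and 177 RPM in Control and between 73.0 and 199 in FD libraries. The part of muscle RNA in the values of miR-193b-3p was not tested.

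The labelled tissue was checked with miRNA of mammary epithelium. The 9 of 10 listed that were found, with miR-148a-3p, miR-141-3p and miR-200b-3p the most abundant, summed to between 229224 and 256342 RPM in Control and between 137478 and 252272 in FD libraries, and the liver miRNA miR-122-5p to at most 0.262. The stromal list summed to between 89233 and 169328 over both diets, the endothelial to between 18205 and 29616, and the erythroid to between 595 and 1356. The 2 myeloid rows found, both miR-223, summed to between 23.3 and 65.5 in Control and between 51.8 and 142 in FD libraries, and their part in the counts of miR-193 and miR-365 was not tested.

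Other miRNA described in brown or beige adipocyte differentiation, a process described for miR-193b and miR-365 too, were compared from a pair of lists. miR-182-5p was also on the epithelial list and miR-133a-3p also on the muscle list. Of 10 miRNA described as promoting it, 9 were found and tested and 0 passed an adjusted p of 0.1 in the edgeR test. Their log2 fold changes ran from -0.32 for miR-378-3p to 0.67 for miR-196a-5p, with a median of 0.16 against -0.00041 over all tested miRNA. The Control mean of miR-196a-5p was 413 ± 52.5 (SD, n = 4) and its FD mean 663 ± 166 (SD, n = 6) normalized counts. It had an adjusted p of 0.195 in the edgeR test and was the 1 of the 9 that DESeq2 called, against 5.51% of all tested miRNA. It was also the 1 member of this list with an unadjusted p under 0.05 in the edgeR test, against 15.7% of all tested miRNA. miR-455-5p and miR-455-3p, also linked to brown fat, had log2 fold changes of 0.47 and 0.38 (standard errors 0.228 and 0.353).

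Of 7 miRNA described as restraining brown or beige adipocytes, all were tested and 0 passed the adjusted threshold in the edgeR test. DESeq2 called 0 of the 7, against 5.51% of all tested miRNA. An unadjusted p under 0.05 in the edgeR test was found for 2, against 15.7% of all tested miRNA. Their median log2 fold change was 0.21, with 6 above 0 and 1 below, against 50% of all tested miRNA above 0. The highest were miR-34a-5p at 0.69 (standard error 0.263, adjusted p = 0.269) and miR-125b-5p at 0.54 (standard error 0.193, adjusted p = 0.237) in the edgeR test. The lists described as promoting and as restraining thus had medians on the same side of 0.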

How the data were processed

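After adapter removal with Cutadapt and a size filter, the authors mapped them to goat CHIR_1.0 and counted them on known and predicted precursors with miRDeep2's quantifier. The deposited counts are whole reads per mature miRNA and library and are not normalized. The deposited normalized columns were not used. The deposited miRDeep2 score and read counts of predicted precursors were computed by the authors on all libraries together. Base calls came from CASAVA 1.8.2, per the labels.

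Tested were miRNA whose highest normalized count was above 28, with edgeR 4.0.16 (TMM, glmQLFit, glmQLFTest, two-sided, no covariates), Benjamini-Hochberg adjusted p-values called under 0.1. The standard error is the log2 fold change over the square root of F. Alternatives were DESeq2 1.42.0, limma-voom (limma 3.58.1), other scalings and filters, robust dispersions, the miR-193 3p rows as 1 row, and each library left out. The 1 row took the higher count, which was that of miR-193b-3p in every library. That fit therefore only left out miR-193a-3p. Correlations used 100000 permutations. The miRNA named are the rows of the name rule, predicted miRNA of the same seed, the 3 most correlated with each row, and list members on which a count turns. The miRNA rows and lists were chosen with earlier results of these data known. The code was tested on simulated data. R 4.3.3, Python 3.11.15 and scipy 1.17.1 were used.

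Replicates are separate goats. The lists were those named in the text for adipocytes, epithelial, myeloid, erythroid, endothelial, stromal, muscle and liver miRNA.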

Additional observations from a re-analysis of the deposited data

How the results depend on the processing

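The number of miRNA with an adjusted p under 0.1 was 0 with edgeR, 27 with DESeq2's Wald test and 5 with edgeR without a filter on low counts, and between 0 and 1 when 1 library was left out, the 1 call appearing without L02. All other tests, scalings and filters run gave 0. None of these calls was a miR-193 or miR-365 row. Over 20 alternatives the log2 fold change of miR-193b-3p ran from 0.21 to 0.44, with adjusted p-values from 0.317 to 0.737, and over 19 that of miR-193a-3p ran from 0.20 to 0.44. That of miR-365-3p ran from -0.039 without L03 to 0.25, with adjusted p-values from 0.536 to 0.984, and was above 0 in the other 19. The diet difference of the log2 ratio of miR-193b-3p to miR-193a-3p was -0.00079 without L06, and between that value and 0.021 with any 1 library left out. The difference for miR-365-3p over miR-193b-3p ran from -0.32 to -0.11 in 12 alternatives. Of the 3 most alike miRNA, 1 remained by Spearman correlation for miR-193b-3p and for miR-365-3p, and 1 for miR-193a-3p in deviations from the diet means. No paired analysis was possible because the labels give no replicate numbers and every library came from a different goat; numbers within a diet only name the libraries. Depth limits the 5p rows, with at most 6 counts per library.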
